A study of Homo sapiens with 4 samples.

Results

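SOX4 and 9 genes reported elsewhere as its targets or partners were examined for binding of HA-tagged SOX4 in U251 cells, an established human glioblastoma line. The 10 genes are SOX4, SOX2, SOX11, TEAD2, TUBB3, EGFR, TNC, DICER1, SEMA3C and CDKN1A. They were named as reported SOX4 targets, at a time when earlier results of these data were known, and each was represented by 1 start position on hg19. A gene counted as having a peak when a peak of a list came within 50 kb of that position. Of the 1558 peaks of the 3 deposited lists, 2 did so, and both lay at SOX4. That made 1 gene of 10, where a peak of any list touched 2.30% of all windows of 100 kb along the chromosomes.

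The study took chromatin 3 days after infection with a virus that made the cells overexpress HA-SOX4. Chromatin was pulled down with an antibody to the HA tag in 3 immunoprecipitations, called IP 1, IP 2 and IP 3. A single input from cells of the same genotype was the background of every peak call. All 4 samples carried the overexpressed protein, so the tag reports the added SOX4 and no sample shows the chromatin of uninfected cells. The replicate libraries came from independent immunoprecipitations, per the labels' protocols, and nothing says whether they came from separate cultures. The lists held 627, 524 and 407 peaks, called on 19228143 to 24037735 tags per immunoprecipitation and 28755427 tags of input.

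SOX proteins are transcription factors that bind DNA through an HMG box, which bends the DNA at a short AT-rich word. SOX4 and SOX11 form most of the SOXC group, which acts in progenitors and in neurons that begin to differentiate. SOX4 is raised in many tumours, and in glioma cells it has been placed upstream of SOX2, a stem cell factor. The other genes have been reported as targets of SOX4 or SOXC proteins in other cells, and include a Hippo pathway transcription factor, a neuronal tubulin, a growth factor receptor, matrix and guidance proteins, the microRNA-processing enzyme and a cell cycle inhibitor.

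The promoters of 3 of the genes are shown because they stand for the range found here. SOX4 had the closest peaks and CDKN1A the next closest. Of the 9 genes with RefSeq windows, only TEAD2 had a searched SOX word upstream of its outermost start. Each sequence is the 250 bases before the outermost start in RefSeq on GRCh38.p14, read 5′ to 3′ on the gene's strand. The words AACAAAG and AACAAT, searched on both strands, are in capitals, and no other form of the SOX word was searched. Because the peaks are on hg19, no peak was placed within these sequences.
SOX4 (chr6:21593501-21593750, plus strand): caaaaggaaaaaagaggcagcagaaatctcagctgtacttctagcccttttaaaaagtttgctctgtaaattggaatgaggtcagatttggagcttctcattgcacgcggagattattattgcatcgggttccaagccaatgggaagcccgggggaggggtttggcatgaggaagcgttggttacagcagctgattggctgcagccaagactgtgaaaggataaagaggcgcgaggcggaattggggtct
CDKN1A (chr6:36678464-36678713, plus strand): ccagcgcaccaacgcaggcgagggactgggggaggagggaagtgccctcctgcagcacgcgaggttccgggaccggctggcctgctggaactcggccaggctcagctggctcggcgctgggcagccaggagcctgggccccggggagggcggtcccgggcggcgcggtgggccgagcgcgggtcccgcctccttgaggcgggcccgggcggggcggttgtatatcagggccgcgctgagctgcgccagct
TEAD2 (chr19:49362417-49362666, minus strand): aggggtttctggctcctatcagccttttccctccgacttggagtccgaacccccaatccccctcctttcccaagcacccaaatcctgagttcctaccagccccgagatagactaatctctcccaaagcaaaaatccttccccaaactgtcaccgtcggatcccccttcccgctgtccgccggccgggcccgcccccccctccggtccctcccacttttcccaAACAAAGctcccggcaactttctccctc

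Of the 10 genes, 9 matched the RefSeq promoter table by symbol, with 17 windows that run from 250 bases before to 50 bases after an annotated start. SOX11 was not among them. The word AACAAAG stood in 5.20% and AACAAT in 10.1% of all 35116 windows of the table, and 14.5% held at least 1 of the words. Among the 17 windows of the 9 genes, 5 held one (29.4%), 2 at TEAD2 and 3 at DICER1. Windows of the same gene can share bases and are not independent. In TEAD2 the word AACAAAG ran from position -28 to -22 of the outermost window, counted from the start at 1, and from 6 to 12, on the other strand, in the window of an inner start. The words at DICER1 all lay in windows of inner starts. SOX4, SOX2, TUBB3, EGFR, TNC, SEMA3C and CDKN1A had neither word in any window. The G and C content of the outermost 250 bases ran from 36.4% at SEMA3C to 76.4% at CDKN1A and was 48.8% at SOX4. A match to such short words is a description of the sequence and not of binding.

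SOX4 was the only one of the 10 genes with a peak within 50 kb of its start. IP 1 had a peak there at chr6:21594978-21595280 (hg19), 303 bp wide, and IP 2 had one at chr6:21594892-21595168, 277 bp wide. IP 3 had none. Both peaks lay downstream of the start, at chr6:21593972, their nearest edges 1006 bp and 920 bp from it. SOX4 is a gene without introns and is transcribed through this stretch, so the peaks lay over transcribed sequence and not at the start itself. Which part of the transcript they cover was not analysed here.

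The SOX4 peaks were of ordinary strength for their lists. The fold enrichment deposited by the authors, the pileup of reads over the local input background with 1 added to each, was 6.27 in IP 1 and 6.82 in IP 2, against list medians of 6.36 and 6.52. By fold they ranked 323 of 627 and 238 of 524. The pileup at the summit was 21 reads in IP 1 and 18 in IP 2, against medians of 22 and 23. The authors' −log10 q was 8.44 and 8.10, so at a stricter q of 1e-10 neither peak would have counted. With no value from IP 3, the 2 folds allow no test, and their ratio was 1.09.

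**Figure D1:**
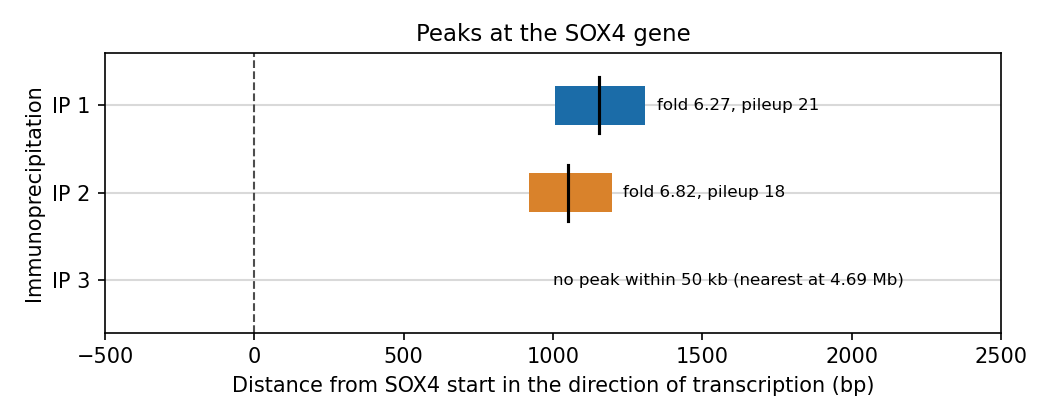
Peaks at the SOX4 gene. The horizontal axis is the distance from the SOX4 start in bp, in the direction of transcription, each bar spans a called peak from edge to edge, and the black tick marks its summit. The bars of IP 1 and IP 2 overlap from 1006 to 1196 bp downstream of the start, and IP 3 has no bar.

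The 2 peaks overlapped by 191 bp, 63.0% of the peak of IP 1 and 69.0% of that of IP 2, and their summits were 105 bp apart, at 1154 and 1049 bp from the start. Together they spanned 389 bp, from 920 to 1308 bp downstream of the start. The next peak of any list on the lower side of the SOX4 start was 6.09 Mb away. IP 3 first had a peak 4.69 Mb to the higher side, at chr6:26286656-26286881, with a fold of 8.45. That peak belongs to a region found in all 3 lists, whose folds were 10.26, 7.75 and 8.45 (8.82 ± 1.30, SD, n = 3).

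Regions formed from overlapping peaks show how often a pair of peaks like that at SOX4 lacked a partner in IP 3. Of 357 regions with peaks of IP 1 and IP 2, 263 (73.7%) also had a peak of IP 3. Among the 54 whose mean fold in IP 1 and IP 2 was within 0.5 of the 6.54 at SOX4, a range chosen after the SOX4 values were seen, 30 (55.6%) did and 24 did not. The SOX4 region was itself 1 of these 54 and of the 24, and 1 of 94 regions found in IP 1 and IP 2 alone. Because the 3 calls used the same input, presence in several lists is not fully independent.

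IP 3 had the fewest tags of the 3 immunoprecipitations, and the lowest pileup called in it was 12 reads. The pileups of IP 1 and IP 2 at SOX4, scaled to the tags and extension of IP 3, were 18.4 and 16.9 reads. With 3 or 4 input reads in a fragment length, 12 or 14 reads would reach the weakest p in the list of IP 3. With 14 input reads in 1 kb, 11 would. The list of IP 3 does not give its pileup at SOX4, so how far that fell short of a call is unknown. The part of depth in the missing peak was not tested. A gene with no peak is not shown to be unbound.

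The cells carried added SOX4 sequence, and reads from it and from the gene cannot be told apart in a peak list. The input, taken from the same kind of infected cells, held 3 reads in the fragment window at the summit of IP 1, where the genome average is 1.74. At the summit of IP 2 the background equalled 14 input reads per 1 kb, against a genome average of 10.7. The IP 2 value fits 140 input reads in 10 kb equally well. A background is the highest of the values for the fragment length, 1 kb, 10 kb and the genome average. It therefore cannot fall below that average and is an upper limit on the local input. The backgrounds at the 2 SOX4 summits were 1.73-fold and 1.31-fold the genome average and rest on few reads. The medians over all called peaks of IP 1 and IP 2 were 1.73-fold and 1.82-fold. The part of the viral sequence in the SOX4 peaks was not tested.

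The other 9 genes had no peak within 50 kb in any list. For comparison, the chromosomes up to their last peak were divided into 29330 tiles of 100 kb, the width of the window around a start. A peak of any list touched 2.30% of the tiles, one of IP 1 touched 1.63%, one of IP 2 1.31% and one of IP 3 1.03%. A region of at least 2 lists, like that at SOX4, touched 1.02%, and one of all 3 lists 0.600%. Among the 10 genes the number was 1 in IP 1, 1 in IP 2, 0 in IP 3, and 0 for regions of all 3 lists. Tiles cover gene deserts as well as gene-rich stretches, so they are not a background of gene starts.

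**Figure D2:**
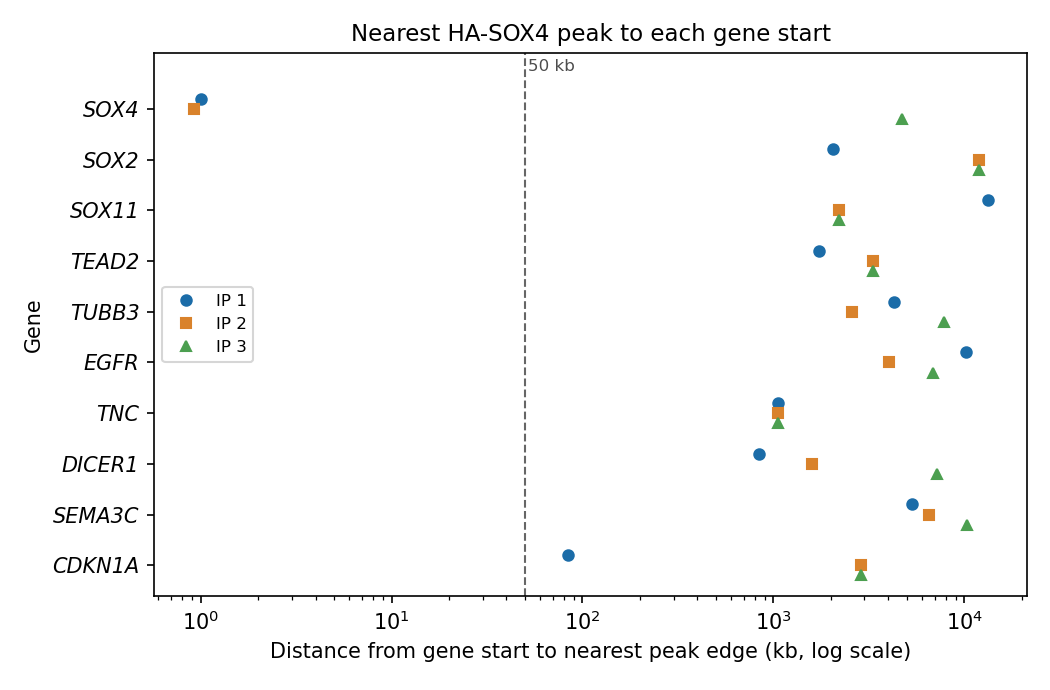
Distance from each of the 10 gene starts to the edge of the nearest peak, in kb on a log axis, for IP 1 (circles), IP 2 (squares) and IP 3 (triangles). Only the IP 1 and IP 2 points of SOX4 lie left of the dashed line at 50 kb, the IP 1 point of CDKN1A lies just right of it at 84.0 kb, and the 3 points of TNC coincide.

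Most starts lay megabases from a peak. Over the 10 genes the median distances were 1.88, 2.73 and 5.79 Mb by list, and 1.88 Mb with the lists together. From the centres of the tiles the medians were 3.34, 4.14, 5.38 and 2.37 Mb. Within 1 Mb of a peak of any list were 3 genes, SOX4, CDKN1A and DICER1, and 28.6% of tile centres. Within 5 Mb were 9 genes, all but SEMA3C, and 71.7% of tile centres.

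CDKN1A, which encodes the cyclin-dependent kinase inhibitor p21, had its nearest peak outside the window. IP 1 had a peak 84.0 kb to the lower side of its start, at chr6:36562190-36562443. That peak had a fold of 8.44 and a pileup of 27 reads and ranked 158 of 627, higher than the SOX4 peak of the same list. It was found in IP 1 alone, and nothing in the lists ties it to CDKN1A. In IP 2 and IP 3 the nearest peaks lay 2.89 Mb to the lower side and overlapped each other, with folds of 5.52 and 6.92. On the higher side no list had a peak within 4.74 Mb. The nearest region of all 3 lists was 7.70 Mb away, with folds of 4.32, 5.05 and 4.79 (4.72 ± 0.37, SD, n = 3).

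The other SOX genes examined, SOX2 and SOX11, were far from any peak. For SOX11, the SOXC relative of SOX4, the nearest peaks of IP 2 and IP 3 were the same region, 2.21 Mb to the lower side, with folds of 7.20 and 6.80, while IP 1 had its nearest peak 13.3 Mb away at a fold of 5.50. The stretch around the SOX11 start without a peak of any list was 15.5 Mb long. For SOX2, IP 1 had its nearest peak 2.05 Mb to the lower side, a weak one with a fold of 4.80 that ranked 524 of 627. IP 2 and IP 3 had theirs 11.9 Mb away, in a region of all 3 lists at chr3:169489871-169490356 with folds of 14.54, 13.34 and 7.08 (11.7 ± 4.01, SD, n = 3). IP 3 had 5 peaks on chromosome 3 in all, against 26 in IP 1 and 20 in IP 2. Neither SOX2 nor SOX11 thus had a peak within 2 Mb, and no further SOX gene was examined.

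TEAD2 and TUBB3 have been described as genes that SOXC proteins switch on in neural development. TEAD2 encodes a DNA-binding partner of the Hippo pathway coactivators, and TUBB3 a tubulin used as a marker of young neurons. At TEAD2, whose promoter holds the AACAAAG word shown above, the nearest peak was in IP 1 alone, 1.72 Mb to the lower side, with a pileup of 14 reads and a rank by fold of 347 of 627. IP 2 and IP 3 had theirs 3.32 Mb away in a region of all 3 lists, with folds of 6.56, 4.32 and 4.99 in IP 1, IP 2 and IP 3 (5.29 ± 1.15, SD, n = 3). At TUBB3 the 3 lists had 3 different nearest peaks, 4.30, 2.57 and 7.79 Mb to the lower side in IP 1, IP 2 and IP 3, with folds of 6.36, 7.20 and 5.71. Each of these was found in 1 list alone. TUBB3 lies near the end of chromosome 16, and no list had a peak between it and that end.

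EGFR, TNC and SEMA3C encode proteins at or outside the cell surface. EGFR is the receptor for epidermal growth factor and is often amplified in glioblastoma. Its nearest peaks lay 10.2, 4.06 and 6.88 Mb away in IP 1, IP 2 and IP 3, with folds of 5.75, 4.89 and 1.45. The IP 3 peak nearest EGFR was the weakest of that list by fold, with a pileup of 182 reads and a background 98.1 times the genome average. The nearest region of all 3 lists was 35.8 Mb from the EGFR start. SEMA3C, a secreted semaphorin, had its nearest peaks 5.32, 6.56 and 10.3 Mb away, with folds of 7.40, 5.47 and 23.95. The last of these, at chr7:90893554-90893875, was also the nearest region of all 3 lists to EGFR, with a mean fold of 24.0 ± 0.48 (SD, n = 3). The SEMA3C start sat in the longest stretch without a peak among the 10 genes, 15.7 Mb.

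TNC was the one gene whose nearest peak was the same in all 3 lists. Tenascin-C is a matrix protein made in abundance by glioblastoma cells. The region lay 1.06 Mb to the lower side of its start, at chr9:116821778-116822027, with folds of 7.59, 7.90 and 5.75 (7.08 ± 1.16, SD, n = 3) and pileups of 19, 19 and 13 reads. On the other side of the TNC start the first peak was 6.45 Mb away. Nothing in the lists ties the region to TNC.

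DICER1 encodes the enzyme that cuts microRNA precursors. Its nearest peaks were 3 different ones, 0.844, 1.60 and 7.16 Mb to the higher side in IP 1, IP 2 and IP 3, with folds of 6.07, 5.36 and 8.75. The first 2 were each found in 1 list alone. The third was part of a region of all 3 lists with folds of 12.66, 12.34 and 8.75 (11.3 ± 2.17, SD, n = 3). On the lower side of the DICER1 start the first peak of any list was 4.38 Mb away.

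The peaks nearest the 10 starts ranged from the top to the bottom of their lists. By fold, the IP 3 peak nearest SEMA3C ranked 2 of 407 and the IP 2 peak nearest SOX2 ranked 23 of 524. The IP 3 peak nearest EGFR ranked 407 of 407. These lay 10.3, 11.9 and 6.88 Mb from the starts. The median folds of the nearest peaks, 6.17, 6.17 and 6.86 by list, stood beside medians of 6.36, 6.52 and 6.91 over all peaks. Those of IP 1 ran from 4.80 to 8.44, those of IP 2 from 4.32 to 13.34 and those of IP 3 from 1.45 to 23.95. Of the 10 nearest peaks, 1 in IP 1, 3 in IP 2 and 6 in IP 3 lay in regions of all 3 lists, and 7, 3 and 2 in a region of 1 list alone. Of all 862 regions, 263 were of all 3 lists and 440 of 1 list alone. The 263 make up a larger part of the 407 peaks of IP 3 than of the 524 of IP 2 or the 627 of IP 1. A higher count in IP 3 is therefore not particular to these genes. The nearest peak was the same region in all 3 lists for 1 gene, in exactly 2 lists for 5 genes and in no pair of lists for 4 genes.

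**Figure D3:**
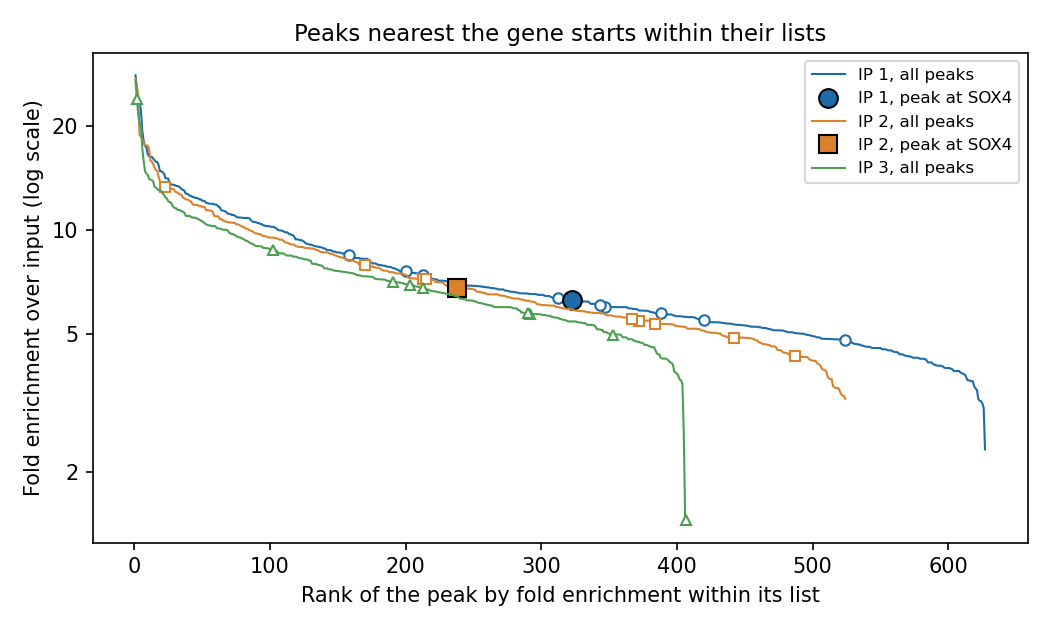
Fold enrichment over input (log axis) against the rank of each peak by fold, 1 line per list. Open symbols mark the peaks nearest the other 9 gene starts and large filled symbols the 2 peaks at SOX4, which sit near the middle of the lines of IP 1 and IP 2 at folds of 6.27 and 6.82.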

How the data were processed

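Single-end 50-base ChIP-seq libraries were demultiplexed, aligned, stripped of duplicates and peak-called by the authors with bcl2fastq 2.20, Bowtie2 2.3.3.1, Picard 2.10 and MACS2 2.1.1.20160309 on hg19, per the submitters' processing notes. HOMER 4.9.1 is also named there. Per the file headers, peaks were called per immunoprecipitation against the 1 input, with no model, an extension of 163, 155 and 179 bp, a q threshold of 0.05 and the larger library scaled down. The handling of reads that map to several places is not stated in the headers or labels. Each deposited list gives the pileup (a signal, in reads at the summit), the fold enrichment (a ratio to local background) and −log10 p and q values of the authors.

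Distances run from the start to the nearest peak edge. Lists were merged at an overlap of 1 bp. The local background was recovered from pileup and fold, and its Poisson tail differed from the authors' −log10 p by at most 0.0002. Input reads are that background divided by the ratio of library sizes, for the fragment length or scaled from it to 1 kb or 10 kb. A window was accepted where the result lay within 0.002 of a whole number. Tables were made with Python 3.11.15, pandas 2.3.3 and SciPy 1.17.1. Artificial peaks were planted near the gene starts in the deposited lists, and 200 of 200 of their distances were recovered. That checks the computation of distances only.

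All 10 genes are described, and every peak within 50 kb of their starts. The genes and the motif words were chosen with earlier results of these data known. With no control list there was no comparison of groups and no test. An hg19 annotation and sequence were not used here, so a comparison with all gene starts and other reported targets, as planned, was not made. Protein sequences were not used either.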

Additional observations from a re-analysis of the deposited data

How the results depend on the processing

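SOX4 remained the only gene within the window at 10 kb, at a fold of 4 or more, in regions of at least 2 lists and with each immunoprecipitation left out in turn (1 gene each time). Windows of 100, 250 and 500 kb gave 2 of 10 genes, SOX4 and CDKN1A, and 1 Mb gave 3, with DICER1, while 4.28%, 9.58%, 17.0% and 28.6% of tile centres had a peak of any list that near. At 500 kb and 1 Mb the counts are thus near the background share. Peaks at a q of 1e-10 or less gave 0 genes, as did regions of all 3 lists. The median distance of 1.88 Mb became 5.63 Mb at that q, where fewer peaks enter, and ran from 1.88 to 2.73 Mb with 1 immunoprecipitation left out. No region of all 3 lists lay within 50 kb of a start. With peaks of at least 2 lists there was 1, and with 1 immunoprecipitation left out 0 to 1, the latter without IP 3. The share of tiles with a peak, 2.30%, was 2.28% with tiles shifted by 50 kb and 2.30% without chromosome 6. Of 60 recomputed distances of single genes, 48 moved by less than their SD over the lists. That SD reached 6.39 Mb, at SOX11, so shifts of megabases could stay below it. At the q of 1e-10 or less, 7 of 10 distances moved by more, and without IP 1 3 of 10 did. TNC was among the 7 although its distance stayed at 1.06 Mb, because its SD was only 0.0000307 Mb. Without IP 1, the nearest peak of CDKN1A was 2.89 Mb away. No paired analysis was possible because the input is a lone sample without a list, which leaves nothing to pair. The comparison with all gene starts was not run. The lowest pileups called were 11, 10 and 12 reads, and no setting varied the depth.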
